A study of Rattus norvegicus with 12 samples.

Results

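The 10 genes of the ADP-ribosylation system described here were measured in cultured neonatal rat ventricular myocytes (NRVMs): Parp1, Parp2, Parp3, Parp8, Parp9, Parp10, Parp12, Parp14, Dtx3l and Zc3hav1. They were taken by gene symbol from the deposited tables, in which each of the 10 has a single row among 18469 genes. NRVMs of Sprague-Dawley rats were transfected with a negative control siRNA (siNeg) or with an siRNA against Slc25a26 (siSlc25a26), which encodes the mitochondrial carrier of the methyl donor S-adenosylmethionine. By the labels, phenylephrine (PE), an α-adrenergic agonist that enlarges cardiomyocytes, was added 12 h after transfection and left for 36 h. The groups were siNeg, siNeg.PE, siSlc25a26 and siSlc25a26.PE, with 3 RNA-seq libraries in each and 12 in all. All 4 groups were transfected, the labels name 1 targeting siRNA, and cells without transfection or with a second siRNA were not analysed here. The paper that names these data describes a knockdown of Nap1l5 and other treatment times, so the siRNA and times given here rest on the labels alone. The labels do not say whether replicates came from separate cell preparations. That paper describes 3 independent biological replicates per group, but for its Nap1l5 knockdown. The p-values thus measure the spread between these libraries, which may be technical.

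PARPs use NAD+ to attach ADP-ribose to proteins. PARP1 and PARP2 are activated by broken DNA and build long poly-ADP-ribose chains, whereas PARP3, PARP8, PARP10, PARP12 and PARP14 are known or thought to attach single units. PARP9 pairs with the ubiquitin ligase DTX3L, and ZC3HAV1 (also called ZAP or PARP13) has no ADP-ribosylating activity and binds CpG-rich viral RNA. Parp9, Parp10, Parp12, Parp14, Dtx3l and Zc3hav1 are known as interferon-stimulated genes, and these 6 are called the interferon-linked genes here.

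A common mark of interferon-stimulated genes is the interferon-stimulated response element (ISRE), searched here as GAAANNGAAA and its reverse complement TTTCNNTTTC in a window of 300 bases around the annotated start. RefSeq (build GRCr8) supplied this window for 9 of the 10 genes, and Parp10 was the one without an entry. Matches were found in Parp14, Dtx3l and Parp12. Their windows are printed with that of Parp1, the DNA damage enzyme they are compared with, 5′ to 3′ on the gene's own strand and with the ISRE letters in capitals.
Parp14, chr11:78407884-78408183 (+ strand): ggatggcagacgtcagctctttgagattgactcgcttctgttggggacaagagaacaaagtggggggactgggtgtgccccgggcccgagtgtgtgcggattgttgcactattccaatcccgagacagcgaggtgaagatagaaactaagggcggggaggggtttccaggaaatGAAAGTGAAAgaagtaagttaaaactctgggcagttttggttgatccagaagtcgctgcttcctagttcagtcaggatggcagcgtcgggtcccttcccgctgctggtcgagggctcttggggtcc
Dtx3l, chr11:78319975-78320274 (+ strand): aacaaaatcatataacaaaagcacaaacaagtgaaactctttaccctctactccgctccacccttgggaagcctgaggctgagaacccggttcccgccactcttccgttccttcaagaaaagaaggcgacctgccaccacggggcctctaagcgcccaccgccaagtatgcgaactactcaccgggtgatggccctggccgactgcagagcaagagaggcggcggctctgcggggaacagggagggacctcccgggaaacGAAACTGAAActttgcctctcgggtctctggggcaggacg
Parp12, chr4:68850492-68850791 (- strand): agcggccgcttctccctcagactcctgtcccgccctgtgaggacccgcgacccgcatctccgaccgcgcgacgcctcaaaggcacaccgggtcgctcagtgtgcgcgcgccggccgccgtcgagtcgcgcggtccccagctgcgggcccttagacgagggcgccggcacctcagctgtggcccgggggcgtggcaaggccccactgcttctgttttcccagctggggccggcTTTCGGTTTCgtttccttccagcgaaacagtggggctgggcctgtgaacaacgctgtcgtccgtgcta
Parp1, chr13:94839234-94839533 (+ strand): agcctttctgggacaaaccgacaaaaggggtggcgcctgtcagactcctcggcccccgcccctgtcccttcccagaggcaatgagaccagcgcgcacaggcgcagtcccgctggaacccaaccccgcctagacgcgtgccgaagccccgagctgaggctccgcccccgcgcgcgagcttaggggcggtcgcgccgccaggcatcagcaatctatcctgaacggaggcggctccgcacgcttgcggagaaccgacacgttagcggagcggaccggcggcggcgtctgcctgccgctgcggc
The match was GAAAGTGAAA at position -76 in Parp14 and GAAACTGAAA at position 10 in Dtx3l, counted from the annotated start at 0. In Parp12 it was TTTCGGTTTC at position -18, that is, on the opposite strand. The Parp14 window also held TTCCAGGAA at position -87, a match to the interferon-γ-activated site searched as TTCNNNGAA, which did not overlap the ISRE. No ISRE letters were found in the windows of Parp1, Parp2, Parp3, Parp8, Parp9 and Zc3hav1, which says only that they are not in these windows. For comparison, 3.92% of the 33469 rat promoter windows held an ISRE match. Of the 12226 windows of genes tested in siSlc25a26 against siNeg without PE, 2.97% held one. The TTCNNNGAA letters were held by 8.87% and 7.09% of these windows. A match is a description of the letters and not of binding.

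Total counts were 24770972 to 28709049 per library. Slc25a26 itself stood at 12.18, 13.13 and 13.81 FPKM in siNeg and at 5.41, 5.96 and 6.09 FPKM in siSlc25a26, a log2 fold change of -1.08 (SE 0.080, adjusted p = 1.08e-05). With PE it stood at 36.32, 44.07 and 46.99 FPKM in siNeg.PE and at 38.58, 38.68 and 40.59 FPKM in those labelled siSlc25a26.PE (log2 fold change -0.0062, SE 0.10, adjusted p = 0.969). The targeted transcript was thus not lower in the PE-treated libraries labelled as its knockdown, and every PE comparison below takes its direction from that label. The cardiomyocyte markers were strongly expressed in all groups (summed level 15575 to 36697 FPKM over 10 markers). Their sum was 15874 to 17204.2 FPKM in siNeg and 15574.5 to 16831.2 FPKM in siSlc25a26. With PE it was 26430.4 to 30161.2 FPKM in siNeg.PE and higher, at 34730.5 to 36697.2 FPKM, in siSlc25a26.PE. The summed level of 10 fibroblast markers was 4473 to 4837 FPKM in siNeg and 2646 to 2950 FPKM in siSlc25a26, and that of 12 leukocyte markers was 93.2 to 113 and 51.8 to 61.2 FPKM. With PE these sums were 2472 to 2514 and 1618 to 1833 FPKM for fibroblasts and 50.8 to 57.4 and 32.1 to 38.8 FPKM for leukocytes, with the macrophage marker Cd163 at or below 3 counts in all 4 groups. Within each PE state the fibroblast and leukocyte sums were thus lower in siSlc25a26, but not each marker. Without PE, 7 of 10 fibroblast markers and 6 of 9 tested leukocyte markers were called lower and 0 higher. With PE, 5 of 10 fibroblast markers were called lower and 1 higher (Tcf21, 0.61, SE 0.072). Of 9 leukocyte markers tested with PE, 2 were called lower and 1 higher (C1qc, 1.60, SE 0.45, not tested without PE). Tcf21 and C1qc were named after their values were seen. Over all genes tested, 7.2% were called lower without PE and 8.1% with PE. The part of these markers in the results was not tested. In bulk RNA, fewer cells of a type and less RNA per cell cannot be told apart.

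The comparison of siSlc25a26 with siNeg asked which of the 10 transcripts moved with the siRNA. A call needed more than a 1.5-fold difference together with an adjusted p below 0.05 in edgeR's quasi-likelihood test. Without PE, 8 of the 10 genes were called higher and none lower, against 8.92% of all 13829 genes tested called higher. With PE, 8 of 10 were again called higher, against 7.71% of 13671 genes. The same 8 genes were called in both, all members except Parp1 and Parp2.

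**Figure D1:**
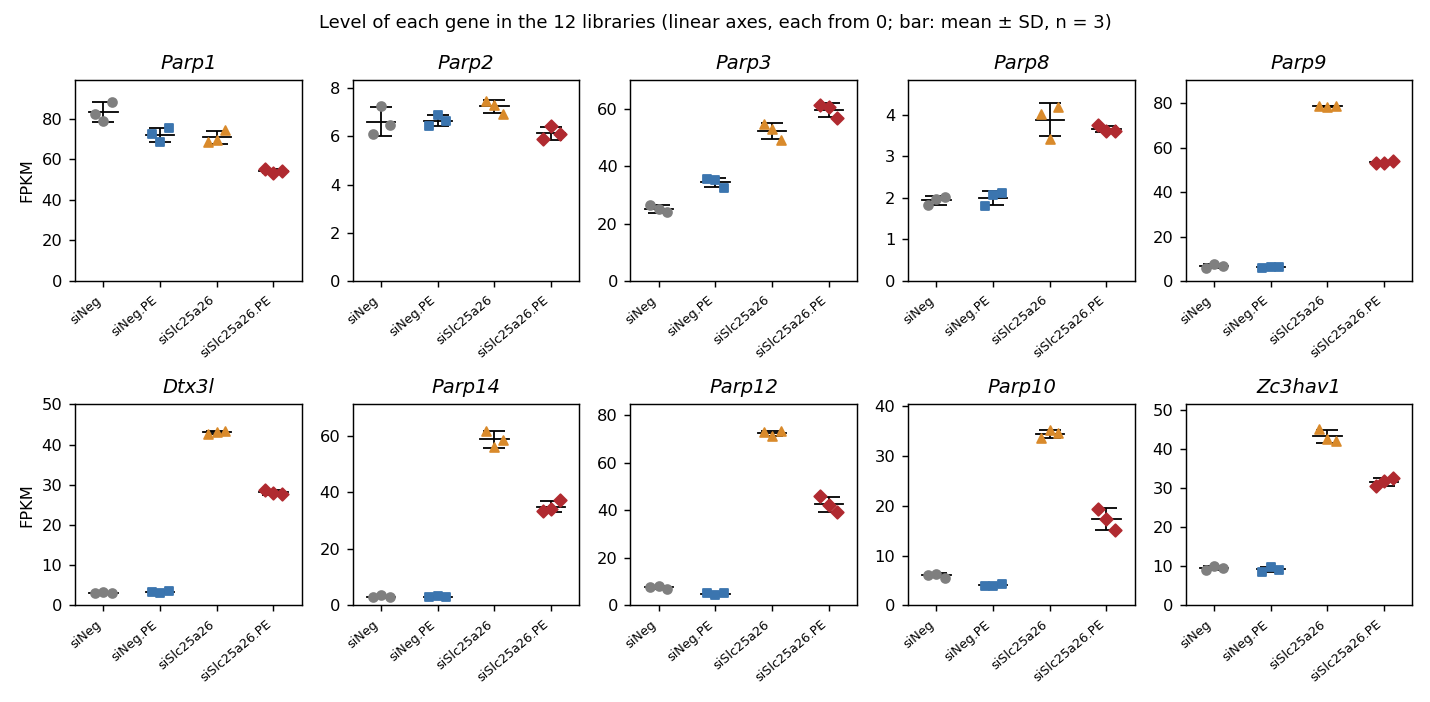
Level of each of the 10 genes in FPKM (linear axis from 0) in the 12 libraries, with the mean ± SD of 3 libraries per group as bars. The 6 interferon-linked genes are high in both siSlc25a26 groups and lower with PE, Parp3 and Parp8 rise by about 2-fold or less, and Parp1 is lowest in siSlc25a26.PE.

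Parp14, a large mono-ADP-ribosyltransferase with macrodomains that bind ADP-ribose, changed most. It stood at 2.80, 3.01 and 3.48 FPKM in siNeg and at 55.88, 58.34 and 61.69 FPKM in siSlc25a26. With PE it stood at 2.84, 2.88 and 3.28 FPKM in siNeg.PE and at 33.35, 33.97 and 37.07 FPKM in siSlc25a26.PE. All 6 siSlc25a26 libraries were above all 6 siNeg libraries. The fitted log2 fold change of Parp14 was 4.19 without PE (SE 0.087, adjusted p = 1.72e-09), an 18.2-fold difference that ranked 110 among the 13829 genes tested, and 3.60 with PE (SE 0.083, adjusted p = 5.86e-09).

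Parp9 and Dtx3l, the partners in a ubiquitin ligase complex, rose together. Parp9 stood at 5.77, 6.87 and 7.50 FPKM in siNeg and at 78.40, 78.48 and 78.62 FPKM in siSlc25a26, against 5.99, 6.32 and 6.39 FPKM and 53.08, 53.14 and 53.97 FPKM with PE. Dtx3l stood at 2.96, 3.10 and 3.22 FPKM in siNeg and at 42.57, 43.03 and 43.48 FPKM in siSlc25a26, against 3.11, 3.27 and 3.55 FPKM and 27.74, 27.82 and 28.66 FPKM with PE. Neither gene's siSlc25a26 libraries overlapped its siNeg libraries. The log2 fold change was 3.51 without PE (SE 0.079, adjusted p = 2.59e-09) and 3.18 with PE (SE 0.061, adjusted p = 4.23e-09) for Parp9. For Dtx3l it was 3.74 (SE 0.061, adjusted p = 5.77e-10) and 3.23 (SE 0.064, adjusted p = 4.23e-09).

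The deposited counts of Parp9 and Dtx3l share reads. Neither count was a whole number in any of the 12 libraries, but their sum was whole in all 12 within 0.01, so reads were divided between the pair. Parp9 took 57.4% to 62.1% of the sum. The sum itself was 839, 925 and 952 counts in siNeg and 12086, 12099 and 12524 in siSlc25a26, and 820, 831 and 864 against 7678, 7914 and 7968 with PE, so the rise does not rest on how the reads were divided. Parp10 shared reads with Plec in 11 libraries and Parp12 with Tbxas1 in 4 by the same measure, while all counts of Parp14 were whole.

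Parp12, a zinc-finger PARP that restrains RNA viruses, stood at 6.90, 7.55 and 8.20 FPKM in siNeg and at 71.38, 73.12 and 73.25 FPKM in siSlc25a26. With PE the values were 4.49, 5.10 and 5.21 FPKM against 39.49, 42.24 and 45.89 FPKM. Its log2 fold change was 3.21 (SE 0.071, adjusted p = 2.44e-09) without PE and 3.18 (SE 0.093, adjusted p = 2.46e-08) with PE. The siRNA groups did not overlap in either state.

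Parp10, a mono-ADP-ribosyltransferase with RNA-recognition and ubiquitin-binding domains, stood at 5.59, 6.17 and 6.37 FPKM in siNeg and at 33.69, 34.57 and 35.17 FPKM in siSlc25a26. With PE it stood at 3.91, 3.92 and 4.25 FPKM against 15.21, 17.42 and 19.45 FPKM. The log2 fold change was 2.46 (SE 0.065, adjusted p = 7.50e-09) and 2.18 (SE 0.10, adjusted p = 5.78e-07).

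Zc3hav1, the antiviral RNA-binding member, stood at 9.01, 9.60 and 10.04 FPKM in siNeg and at 42.28, 42.61 and 45.12 FPKM in siSlc25a26, and at 8.65, 9.12 and 9.90 against 30.50, 31.89 and 32.62 FPKM with PE. Its log2 fold change of 2.07 (SE 0.055, adjusted p = 7.50e-09) without PE and 1.78 (SE 0.069, adjusted p = 1.62e-07) with PE was the smallest of the 6 interferon-linked genes in both states. Even so, no siSlc25a26 library overlapped a siNeg library.

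Parp3, which acts in the repair of DNA double-strand breaks, and Parp8, a little-studied family member, rose less. Parp3 stood at 23.98, 24.92 and 26.57 FPKM in siNeg and at 49.14, 52.85 and 54.72 FPKM in siSlc25a26 (log2 fold change 0.98, SE 0.061, adjusted p = 3.30e-06). With PE it stood at 32.55, 35.07 and 35.39 FPKM against 56.85, 60.49 and 61.17 FPKM (log2 fold change 0.85, SE 0.071, adjusted p = 3.23e-05). On FPKM, Parp3 was the only one of the 10 whose highest mean was in siSlc25a26.PE. On the fitted counts Parp8 was not lower there than in siSlc25a26 either (log2 fold change 0.071, edgeR adjusted p = 0.532). Parp8 was the lowest of the 10 genes in all 4 groups, with 1.82 to 2.03 FPKM in siNeg and 3.43 to 4.19 FPKM in siSlc25a26, and with 1.81 to 2.12 and 3.62 to 3.75 FPKM under PE. Its log2 fold change was 0.95 (SE 0.11, adjusted p = 0.000215) and 0.90 (SE 0.095, adjusted p = 0.000128).

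Parp1 and Parp2, the members that build long poly-ADP-ribose chains at broken DNA, were not called in either comparison. Parp1 stood at 78.85, 82.50 and 88.45 FPKM in siNeg and at 68.72, 69.34 and 74.35 FPKM in siSlc25a26. With PE it stood at 68.48, 72.32 and 75.47 FPKM against 53.13, 54.02 and 55.32 FPKM. The groups did not overlap in either state, and the log2 fold changes of -0.29 (SE 0.059, adjusted p = 0.00413) and -0.34 (SE 0.059, adjusted p = 0.00187), 1.22-fold and 1.27-fold lower, passed the adjusted p threshold but not the fold threshold. Parp2 stood at 6.11 to 7.26 FPKM in siNeg, 6.95 to 7.48 FPKM in siSlc25a26, 6.43 to 6.88 FPKM in siNeg.PE and 5.90 to 6.43 FPKM in siSlc25a26.PE. Its log2 fold change was 0.068 (SE 0.095, adjusted p = 0.591) without PE and -0.039 (SE 0.090, adjusted p = 0.758) with PE.

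**Figure D2:**
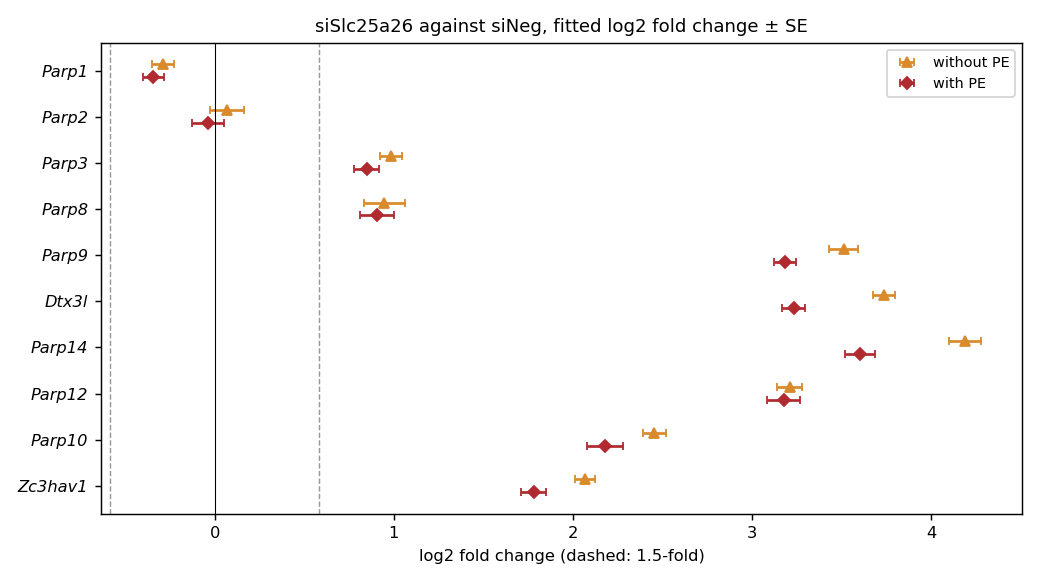
Fitted log2 fold change of siSlc25a26 over siNeg ± SE for the 10 genes, without PE (triangles, 3 against 3 libraries) and with PE (diamonds, 3 against 3), with the 1.5-fold threshold dashed. Values run from -0.34 for Parp1 to 4.19 for Parp14, and the 8 genes other than Parp1 and Parp2 lie beyond the threshold in both states.

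The order of the 10 levels changed accordingly. In siNeg, Parp1 led with a mean of 83.3 ± 4.85 FPKM (SD, n = 3), followed by Parp3 at 25.2 ± 1.31 and Zc3hav1 at 9.55 ± 0.517 FPKM, while Parp12, Parp9, Parp2 and Parp10 lay between 7.55 and 6.04 FPKM with each neighbouring pair overlapping. In siSlc25a26, Parp9 led at 78.5 ± 0.111 FPKM (SD, n = 3), above Parp12 at 72.6 ± 1.04 and Parp1 at 70.8 ± 3.09 FPKM, and Parp12 and Parp1 overlapped. Zc3hav1 and Dtx3l also overlapped, at 43.3 ± 1.55 and 43.0 ± 0.455 FPKM. In siSlc25a26.PE, Parp3 led instead at 59.5 ± 2.32 FPKM, ahead of Parp1 at 54.2 ± 1.10 and Parp9 at 53.4 ± 0.497 FPKM, which overlapped. The 6 interferon-linked genes made up 22.4% to 25.6% of the summed FPKM of the 10 genes in siNeg and 71.1% to 71.3% in siSlc25a26, and 20.5% to 21.6% against 62.5% to 63.1% with PE. Parp1 made up 51.9% to 56.7% in siNeg and 14.6% to 16.0% in siSlc25a26.

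To set the 8 genes against Parp1 and Parp2 within the same library, each gene's FPKM was divided by the geometric mean FPKM of Parp1 and Parp2, which removes the library's scaling. The siSlc25a26 minus siNeg difference of this log2 ratio, averaged over both PE states, was 4.05 for Parp14, 3.60 for Dtx3l, 3.48 for Parp9, 3.35 for Parp12, 2.47 for Parp10 and 2.14 for Zc3hav1. It was 1.09 for Parp8 and 1.08 for Parp3. Parp1 itself was lower in siSlc25a26 (fitted log2 fold change -0.29 without PE and -0.34 with PE), so part of each difference lies in the divisor. For each of the 8 ratios the two-sided exact permutation p, over 400 relabellings within PE states, was 0.005, the smallest these can give and not adjusted over the 8. The mean log2 ratio of Parp14 was -2.93 ± 0.125 in siNeg and 1.37 ± 0.0667 in siSlc25a26 (SD, n = 3), that is, below the Parp1 and Parp2 mean before and above it after. Parp9, Parp10, Parp12, Dtx3l and Zc3hav1 also crossed 0 without PE, Parp3 was above 0 and Parp8 below 0 in all 4 group means. With PE the mean of Parp10 stayed below 0, at -2.44 in siNeg.PE and -0.078 in siSlc25a26.PE, while the other interferon-linked genes crossed. The 0 lies between the levels of Parp1 and Parp2, so crossing it does not mean reaching the level of Parp1.

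**Figure D3:**
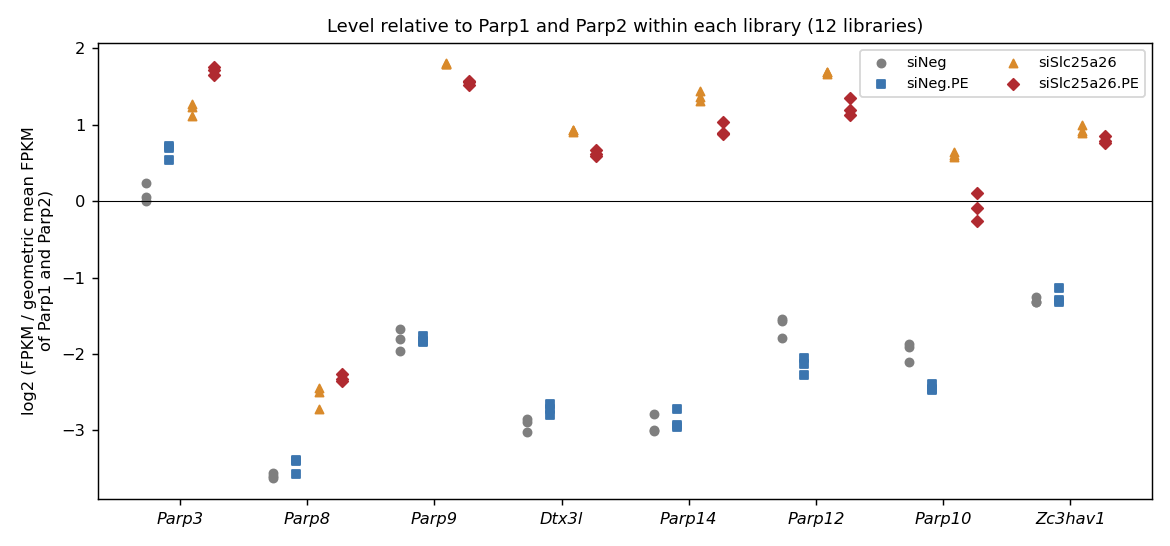
Log2 ratio of each gene's FPKM to the geometric mean FPKM of Parp1 and Parp2, with 1 point per library and 0 marking equality. The 6 siNeg libraries of each gene lie below its 6 siSlc25a26 libraries for all 8 genes, by 4.05 on average for Parp14 and by 1.08 for Parp3.

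The question for PE was whether the hypertrophic stimulus moved the same genes in either siRNA background. In siNeg, 4 of the 10 genes had an unadjusted p under 0.05 in edgeR, with no share of all genes taken at that level. It called 0 of the 10, against 20.7% of 13719 genes called higher or lower. By adjusted p alone 3 of 10 passed, against 49.5% of those genes: Parp3 with a log2 fold change of 0.49 (SE 0.068, adjusted p = 0.000769), Parp10 with -0.54 (SE 0.088, adjusted p = 0.00161) and Parp12 with -0.57 (SE 0.096, adjusted p = 0.00189). DESeq2 and limma-voom also called 0 of the 10. Parp12 and Parp10 lie near the 1.5-fold threshold, and both passed it when siNeg replicate 3 was left out (-0.63 and -0.60). Parp12 also passed it without siNeg.PE replicate 1 (-0.61) or replicate 3 (-0.59).

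In siSlc25a26, PE lowered 2 of the 10 genes, against 10.4% of 13776 genes called lower. Parp10 fell by 0.81 on the log2 scale (SE 0.086, adjusted p = 6.93e-05) and Parp12 fell by 0.60 (SE 0.064, adjusted p = 7.52e-05). The Parp12 call was lost without siSlc25a26 replicate 3 (-0.58), siSlc25a26.PE replicate 2 (-0.58) or siSlc25a26.PE replicate 3 (-0.54). By adjusted p alone 7 of the 10 were lower, against 26% of all genes tested. Besides Parp10 and Parp12 these were Parp14 at -0.58 (SE 0.058, adjusted p = 5.00e-05), Dtx3l at -0.48 (SE 0.044, adjusted p = 2.78e-05), Parp9 at -0.39 (SE 0.044, adjusted p = 0.000104), Zc3hav1 at -0.28 (SE 0.049, adjusted p = 0.00127) and Parp1 at -0.21 (SE 0.054, adjusted p = 0.00964). Parp14, 1.49-fold lower, lay just inside the fold threshold and passed it without siSlc25a26 replicate 2 (-0.62) or siSlc25a26.PE replicate 3 (-0.62), and in 6 of 15 alternatives in all. Parp3 was again higher with PE, at 0.36 (SE 0.057, adjusted p = 0.000673). FPKM values are not corrected for composition as the fitted counts are. On log2(FPKM + 1) the median of all genes was at -0.13 in this comparison. Falls with PE read off FPKM levels thus look larger than the fitted ones, and rises look smaller.

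**Figure D4:**
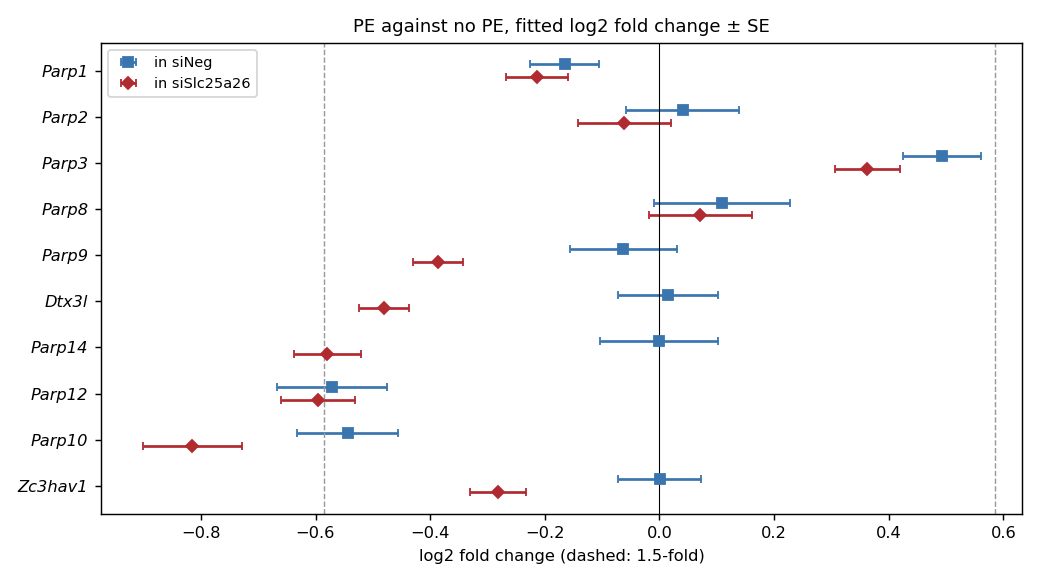
Fitted log2 fold change of PE over no PE ± SE for the 10 genes in siNeg (squares, 3 against 3 libraries) and in siSlc25a26 (diamonds, 3 against 3), with the 1.5-fold threshold dashed. Parp14, Dtx3l, Parp9 and Zc3hav1 lie within 0.063 of 0 in siNeg and between -0.58 and -0.28 in siSlc25a26, while Parp12 is at -0.57 and -0.60.

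The difference of the siSlc25a26 effect between PE states was tested as an interaction over all 12 libraries. Parp14 was called, with an effect smaller by 0.60 on the log2 scale under PE (-0.60, SE 0.11, adjusted p = 0.00558), which makes 1 of 10 genes against 3.34% of 14097 genes called lower. By adjusted p alone 4 of 10 were lower, against 5.73% of genes. These were Parp14, Dtx3l at -0.52 (SE 0.072, adjusted p = 0.00103), Parp9 at -0.35 (SE 0.092, adjusted p = 0.0312) and Zc3hav1 at -0.30 (SE 0.083, adjusted p = 0.0342). For Parp10 the difference was -0.29 (SE 0.12, adjusted p = 0.157) and for Parp12 it was -0.047 (SE 0.11, adjusted p = 0.829). Parp1 (-0.070, adjusted p = 0.624), Parp2 (-0.12, adjusted p = 0.538), Parp3 (-0.15, adjusted p = 0.313) and Parp8 (-0.060, adjusted p = 0.825) did not pass either. The adjusted p of Parp14 and Dtx3l stayed under 0.05 in all 20 alternative fits, whereas that of Parp9 did so in 14 and that of Zc3hav1 in 12. The Parp14 value dropped under the 1.5-fold threshold without siNeg replicate 1 (-0.54) or replicate 3 (-0.58), siNeg.PE replicate 2 (-0.53), siSlc25a26 replicate 1 (-0.56) or siSlc25a26.PE replicate 1 or 2 (-0.58 each).

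FPKM ratios were taken within the pair Parp9 and Dtx3l and with their neighbour Parp14. Reads were divided between Parp9 and Dtx3l, so a ratio that holds either gene depends on that division. The Dtx3l to Parp9 FPKM ratio was 0.466 ± 0.0619 in siNeg and 0.548 ± 0.00534 in siSlc25a26 (SD, n = 3), and the ranges of 0.429 to 0.537 and 0.542 to 0.553 did not overlap. With PE the ratio was 0.531 ± 0.0395 and 0.526 ± 0.0128, and the ranges overlapped. The Parp14 to Parp9 ratio was 0.462 ± 0.0236 in siNeg and 0.747 ± 0.0369 in siSlc25a26, with no overlap. With PE it was 0.481 ± 0.0294 and 0.651 ± 0.0313. Parp14 stood at 0.0374 ± 0.00586 of the Parp1 level in siNeg and at 0.829 ± 0.0601 of it in siSlc25a26.

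Parp9, Dtx3l and Parp14 follow one another among the protein-coding genes of rat chromosome 11 in RefSeq, flanked by Kpna1, a nuclear import receptor gene, and Hspbap1. The flanking genes were not called. Kpna1 had a log2 fold change of -0.31 without PE (SE 0.075, adjusted p = 0.00889) and -0.18 with PE (adjusted p = 0.146). Hspbap1 had 0.22 (SE 0.11, adjusted p = 0.115) and 0.28 (adjusted p = 0.0819). Of the 16 genes outside the set that adjoin any of the 10 members, 11 were tested without PE and 10 with PE. Of these, edgeR called 0 in either, against 16.1% and 15.8% of all genes called higher or lower. An unadjusted p under 0.05 was reached by 5 in each, with no share of all genes taken at that level. Plec, one of the adjoining genes, shares reads with Parp10. It stood at -0.46 (adjusted p = 0.000798) without PE and 0.35 (adjusted p = 0.00562) with PE, while Parp10 was higher in both.

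**Figure D5:**
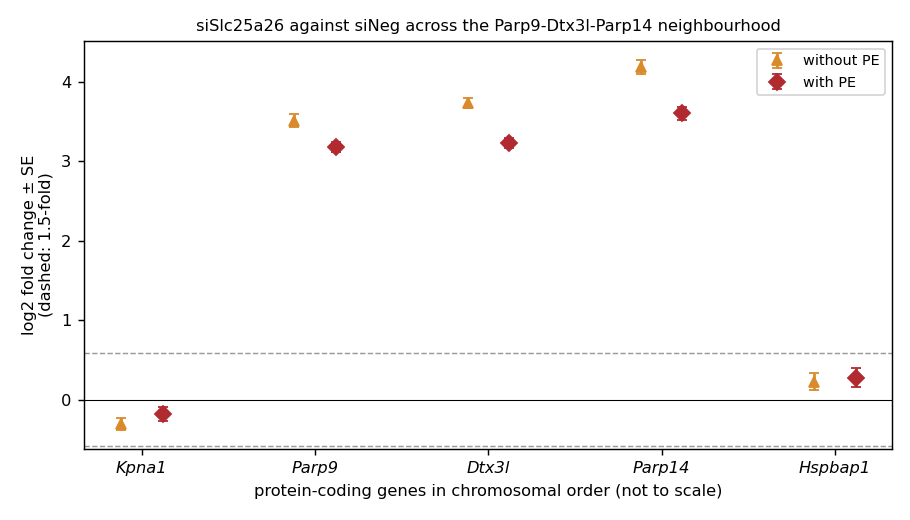
Fitted log2 fold change of siSlc25a26 over siNeg ± SE for Parp9, Dtx3l and Parp14 and the protein-coding genes on either side, in chromosomal order but not to scale, without PE (triangles) and with PE (diamonds). The 3 members lie between 3.18 and 4.19 and the flanking genes between -0.31 and 0.28.

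Over the 12 libraries and 14097 genes, the profile most like that of Parp14 was Ddx58, the RNA sensor RIG-I, with a root mean square difference of centred log2 CPM of 0.138, followed by Irgm2 at 0.163 and Rnf213 at 0.194. Among the members, Dtx3l was at 0.226 and Parp9 at 0.291 from Parp14, whereas Parp12 was at 0.427, Parp10 at 0.833 and Zc3hav1 at 0.993. The profiles most like that of Parp1 were Hif1an at 0.0536, Ptpn1 at 0.0557 and Cds2 at 0.0576, and Parp2 was at 0.217. Genes that change little lie close to one another by this measure.

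Of 7 other PARP family genes, edgeR called 2 higher without PE, against 8.92% of all genes, and 0 with PE, against 7.71%, where 4 had an unadjusted p under 0.05 (median log2 fold change 0.12 and 0.18, against 0.015 and -0.0028 over all genes tested). The called ones were Tiparp, an aryl hydrocarbon receptor target (0.74, SE 0.11, adjusted p = 0.000613), and Tnks2, a tankyrase (0.67, SE 0.093, adjusted p = 0.000552). Parp16 at -0.02 (adjusted p = 0.842) and Parp4 at -0.01 (adjusted p = 0.868) were at the other end. Of the 3 tested relatives of Dtx3l in the Deltex family, edgeR called 0 in either state, with an unadjusted p under 0.05 for 1 in each (Dtx2 0.14, Dtx3 -0.05, Dtx4 -0.26 without PE).

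Of 15 DNA strand break repair partners of PARP1 and PARP2, edgeR called 1 higher without PE, a share near the 8.92% of all genes, and 0 with PE, against 7.71%, where 5 had an unadjusted p under 0.05 (median -0.11 and -0.14). It was Lig4, a ligase of end joining, at 0.69 (SE 0.17, adjusted p = 0.00926). Chd1l at -0.46 (adjusted p = 0.0265) and Timeless at -0.41 (adjusted p = 0.00413) stayed within the fold threshold. Of 14 ZAP cofactors and RNA decay genes, 5 were called higher without PE and 3 with PE, none lower (median 0.47 and 0.22). Over all genes tested, 8.92% and 7.71% were called higher (median 0.015 and -0.0028). Trim25, the ubiquitin ligase that ZAP needs, rose by 2.06 (SE 0.049, adjusted p = 4.00e-09) and 2.05 (adjusted p = 3.75e-08). It stood at 10.93, 11.98 and 12.33 FPKM in siNeg and at 49.04, 50.77 and 52.40 FPKM in siSlc25a26. Dcp2, a decapping enzyme, rose by 2.85 (SE 0.56, adjusted p = 0.00321), but its deposited counts were fractional and low in siNeg (8.30, 16.85 and 44.99), while Zc3hav1l, the ZAP-like neighbour of Zc3hav1, stood at -0.29 (adjusted p = 0.0400) and Dcp1a at -0.18 (adjusted p = 0.228).

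Of 17 genes of interferon signalling, 9 were called higher without PE and 0 lower (median 0.94). Of the 16 tested with PE, 7 were called higher (median 0.46). Over all genes tested, 8.92% were called higher without PE and 7.71% with PE. Ifnb1, which encodes interferon-β, had 1, 0 and 0 counts in siNeg, 50, 53 and 55 in siSlc25a26, 0 in each siNeg.PE library and 4, 7 and 7 in siSlc25a26.PE. Irf7, a transcription factor of the interferon response, rose by 6.12 (SE 0.11, adjusted p = 8.73e-10) without PE and 6.77 with PE. The receptor chain Ifnar1 (0.10, adjusted p = 0.130) and the kinase Jak1 (0.22, adjusted p = 0.0102) were not called. All 16 tested antiviral reference genes were called higher without PE (median 5.90) and 16 of 17 with PE (median 5.35), among them Mx1 (8.44 and 7.06) and Ifit3 (8.20 and 7.08) at the top and Ifi44 (3.73 and 3.27) and Ifit2 (3.39 and 2.57) at the bottom without PE. With PE in siSlc25a26, 12 of the 17 were called lower and 1 higher (median -0.76, against -0.0036 over all genes). Over all genes tested, 10.4% were called lower and 10.1% higher in this comparison. The interaction was called lower for 5 of 17, against 3.34% of all genes tested. The medians of 5.90 and 5.35 exceed the 4.19 and 3.60 of Parp14, the member that changed most.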

How the data were processed

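RNA of 12 libraries was sequenced, and groups and replicate numbers come from the labels. The authors deposited estimated counts per gene (20.8% to 21.9% of values per library not whole), which were rounded here because the planned tests take whole counts, and FPKM values, scaled by gene length and library total. The submitters' processing notes name HISAT, Bowtie2 and Rnor_6.0. The counting program and strandedness are not given in the sources used here. Genes were tested with edgeR 4.0.16 in R 4.3.3 (TMM, filterByExpr, quasi-likelihood test, Benjamini-Hochberg adjustment over all genes tested), each pair of groups on its 6 libraries and the interaction on all 12. SEs come from the F statistic. Calls needed more than a 1.5-fold difference together with an adjusted p below 0.05. No share of all genes was taken at an unadjusted p under 0.05, so no count at that level has a background beside it. The 10 genes, the lists and the tests were chosen with earlier results of these data known. Named genes are the members, Slc25a26, the 2 largest and 2 smallest log2 fold changes of each list without PE, the 3 profiles nearest to Parp14 and to Parp1, and adjoining protein-coding genes. A gene that this rule names is not reported here. A count of 3 equals 0.0983 to 0.121 CPM, counting error only. RefSeq (GRCr8) gave promoter windows and gene order, and 16962 (91.8%) identifiers matched. The main tests did not pair libraries by replicate number. Deviations of same-numbered libraries correlated at -0.091 to 0.216. Whether same-numbered libraries shared a preparation was not tested. On simulated counts for siSlc25a26 against siNeg without PE, 186 of 200 genes changed 2-fold were recovered among 13597, and 14 unchanged genes were called. The changed genes were drawn only from better-counted genes, with the spread of the siNeg libraries, so recovery at low counts was not tested. Alternatives were DESeq2 1.42.0, limma-voom (limma 3.58.1), DESeq2 size factors, limma on FPKM as log2 with 1 or 0.1 added, no filter, at least 10 counts in every library, all 12 libraries in one fit, a replicate block, no fold threshold and each library left out.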

Additional observations from a re-analysis of the deposited data

Results flagged for a closer look

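The siSlc25a26 effect differed between the PE states for 4 of the 10 genes by adjusted p in the interaction fit of edgeR: Parp14 (-0.60, adjusted p = 0.00558), Dtx3l (-0.52, adjusted p = 0.00103), Parp9 (-0.35, adjusted p = 0.0312) and Zc3hav1 (-0.30, adjusted p = 0.0342), each log2 and smaller with PE. Of all genes tested in that fit, 5.73% were lower by adjusted p alone. The siSlc25a26 libraries were above the siNeg libraries for all 4 genes in both states, in 6 of 6 libraries against 6. Over 20 alternatives the value ranged from -0.71 to -0.53 for Parp14, -0.71 to -0.48 for Dtx3l, -0.46 to -0.26 for Parp9 and -0.40 to -0.24 for Zc3hav1, and the highest adjusted p was 0.0199, 0.00497, 0.0818 and 0.0887. The adjusted p of Parp9 rose above 0.05 when siNeg.PE replicate 2 or 3, siSlc25a26.PE replicate 2 or any siSlc25a26 library was left out (-0.34 to -0.32). That of Zc3hav1 did so without siNeg replicate 1, siNeg.PE replicate 2 or 3, siSlc25a26.PE replicate 1 or 2, or any siSlc25a26 library (-0.31 to -0.24). The siRNA target Slc25a26 had an interaction of 1.06 in the same fit (SE 0.13, adjusted p = 0.000466), and its part in these differences was not tested.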

How the results depend on the processing

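The counts of called members for siSlc25a26 against siNeg were 8 in both PE states in all alternatives but the one without a fold threshold, where they were 9 with Parp1 added. The PE counts lie near the fold threshold. For PE in siNeg the count of 0 became 3 by adjusted p alone, against 49.5% of all genes. It became 1 on log2(FPKM + 0.1), and 0 to 2 with 1 library left out. For PE in siSlc25a26 the count of 2 became 8 by adjusted p alone, all lower but Parp3, against 26% of all genes lower. It became 4 on log2(FPKM + 1) and 4 on log2(FPKM + 0.1). It became 3 with at least 10 counts in every library and 3 in one fit of 12 libraries (Parp14 added at -0.59 in both), and 1 to 3 with 1 library left out. For the interaction the count of 1 became 4 by adjusted p alone, all lower, against 5.73% of all genes lower. It became 0 with DESeq2 and 0 with its size factors (Parp14 at -0.57 in both), 2 on either FPKM scale, and 0 to 1 with 1 library left out. The FPKM scales moved the median of all genes to -0.13 and -0.17 for PE in siSlc25a26 and to -0.11 and -0.14 for the interaction. Blocking on the replicate number gave counts of 8, 8, 0, 2 and 1, so the replicate block changed no call of a member. The 8 ratios to Parp1 and Parp2 kept their direction in 17 alternatives each. The smallest 2 ranged from 0.92 to 1.25 for Parp3 and from 0.84 to 1.26 for Parp8.

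Values that changed sign were not called. For PE in siNeg, Parp14 was 0.0058 with DESeq2, 0.0057 with its size factors, 0.0033 with limma-voom, 0.0025 with at least 10 counts, 0.012 in one fit of 12 libraries and 0.00018 with the replicate block. Zc3hav1 was -0.0010 with limma-voom, -0.0037 without a filter, -0.0014 with the replicate block, and -0.046 and -0.050 on the FPKM scales. With 1 library left out, Parp14 ranged from -0.067 to 0.088, Zc3hav1 from -0.052 to 0.049, Dtx3l from -0.015 to 0.058, Parp2 from -0.0029 to 0.11 and Parp9 from -0.14 to 0.0049. For PE in siSlc25a26, Parp8 was -0.063 and -0.077 on the FPKM scales and ranged from -0.0011 to 0.13. In the interaction, Parp8 ranged from -0.13 to 0.0077 and Parp12 from -0.12 to 0.012 with 1 library left out. Depth limits little here, since the lowest member count was 163 (Parp8). With 3 libraries a group, a 2-group exact permutation test cannot go below 0.1.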

Other observations

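NAD+ is the substrate of the PARPs, and 3 of 12 tested genes of NAD salvage and use were called higher and 2 lower in siSlc25a26 without PE (median log2 fold change 0.065, against 0.015 over all genes tested), and 3 higher and 0 lower with PE. Over all genes tested, 8.92% were called higher and 7.2% lower without PE, and 7.71% and 8.1% with PE. Nampt, the rate-limiting enzyme of NAD salvage, stood at 12.22, 13.91 and 14.96 FPKM in siNeg and at 32.74, 37.49 and 38.23 FPKM in siSlc25a26, a log2 fold change of 1.34 (SE 0.085, adjusted p = 3.69e-06). With PE it stood at 11.66, 12.61 and 13.74 FPKM against 22.37, 23.90 and 25.50 FPKM, a log2 fold change of 0.99 (adjusted p = 1.73e-05). The groups did not overlap in either state. Cd38, an NAD-consuming enzyme, rose by 0.68 (adjusted p = 0.00266) and 0.99 (adjusted p = 0.000340). Nmrk2, a nicotinamide riboside kinase of muscle, fell by 1.17 without PE (adjusted p = 0.000843) and stood at -0.16 with PE (adjusted p = 0.703). Nnmt, which methylates nicotinamide with S-adenosylmethionine, fell by 0.88 (adjusted p = 3.54e-05) and stood at -0.56 with PE (adjusted p = 0.0125). The difference between PE states was not called for Nmrk2 (0.99, adjusted p = 0.0950), Nnmt (0.31, adjusted p = 0.247) or Cd38 (0.29, adjusted p = 0.329).

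Of 11 genes that remove or read ADP-ribose, edgeR called 0 without PE (median -0.13), against 16.1% of all genes called higher or lower. An unadjusted p under 0.05 was reached by 8 of the 11, with no share of all genes taken at that level. With PE, 1 was called higher and 2 lower (median 0.042, against -0.0028 over all genes tested). Over all genes tested with PE, 7.71% were called higher and 8.1% lower. Macrod2, a macrodomain hydrolase of single ADP-ribose units, stood at 7.61, 8.14 and 11.16 FPKM in siNeg.PE and at 1.91, 1.92 and 2.56 FPKM in siSlc25a26.PE, a log2 fold change of -2.00 (adjusted p = 2.21e-05). Without PE it stood at 8.23, 11.88 and 12.03 against 8.31, 8.43 and 9.34 FPKM, and these groups overlapped (log2 fold change -0.36, adjusted p = 0.0553). The interaction for Macrod2 was called, at -1.66 (SE 0.23, adjusted p = 0.00103). Macrod1 stood at -0.26 without PE (adjusted p = 0.0346) and fell by 0.64 with PE (adjusted p = 0.00759), with no call for the interaction (-0.40, adjusted p = 0.195). The gene called higher with PE was Adprhl1, a relative of the ADP-ribosylarginine hydrolase (0.87, adjusted p = 0.000336), named after its values were seen. Its interaction was called in the opposite direction to that of Macrod2, at 0.65 (SE 0.13, adjusted p = 0.00652). Parg (0.25, adjusted p = 0.0705) and Nudt5 (0.34, adjusted p = 0.0208) were not called without PE.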
